A study of Mus musculus with 6 samples.

Results

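The 46 cytosolic ribosomal protein genes described here were taken from 18193 genes that had at least 1 probe set annotated with exactly 1 gene symbol. A gene was included if its symbol had the form Rpl or Rps plus a number, with an optional letter, or was Rplp0, Rplp1, Rplp2 or Rpsa, and 100 probe sets carried these 46 symbols. S6 kinase genes (Rps6k), the Rps19 binding protein gene and pseudogenes were left out. Each gene was represented by its brightest probe set by the mean of the 6 arrays, a probe set being a group of short probes whose brightness is summarised in 1 value. Of the 46 genes, 22 encode proteins of the 40S subunit and 24 proteins of the 60S subunit, 2 of them (Rplp0 and Rplp2) in the stalk. All 46 were found in the RefSeq genes of GRCm38.p6, on 17 chromosomes.

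Thymus RNA was measured on Affymetrix mouse arrays, with 3 from the AKR cross, (AKR/J x FVB/NJ)F1, and 3 from the DBA cross, (DBA/2J x FVB/NJ)F1, all adult females. Every animal therefore carried 1 FVB/NJ parental genome, and the crosses differed in the other parent, AKR/J or DBA/2J. Animals of both crosses were killed under Avertin anaesthesia, and the study asked for basal expression differences between the genotypes. The labels do not say whether the arrays of a cross came from separate animals, so each p-value measures only the spread between these arrays. All values are on the authors' log2 scale, differences are AKR cross minus DBA cross, and a gene was called where limma gave a Benjamini-Hochberg adjusted p under 0.05 over all 12855 genes tested.

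The cytosolic ribosome is built of a small 40S subunit, which decodes the mRNA, and a large 60S subunit, which joins amino acids, and each subunit holds ribosomal RNA with a set of proteins made in near-equal numbers. Many mRNAs of ribosomal proteins begin with a run of pyrimidines, the 5′ terminal oligopyrimidine (TOP) tract, through which the kinase complex mTORC1 controls their translation. Thymocytes divide fast at the stages around β-selection, and in mice the loss of the 60S protein Rpl22 blocks αβ T cell development at that stage.

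The 30 bases around the RefSeq start site, 15 on either side, are shown for the 3 called genes, for Rps9, which lay near the threshold, and for genes with a TOP-type start, with Rpl22 for contrast. Capitals mark the unbroken run of C and T that contains the annotated first base, and Rpl22 has none. All are RefSeq sequences of GRCm38.p6, written 5′ to 3′ on the strand of the gene.
Rpl27a (chr7:109519180-109519209, plus strand): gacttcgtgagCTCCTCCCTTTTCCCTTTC
Rps6 (chr4:86857353-86857382, minus strand): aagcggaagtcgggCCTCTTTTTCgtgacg
Rps24 (chr14:24490663-24490692, plus strand): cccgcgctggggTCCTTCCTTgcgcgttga
Rps9 (chr7:3704026-3704055, plus strand): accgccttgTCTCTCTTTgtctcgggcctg
Rplp2 (chr7:141447636-141447665, plus strand): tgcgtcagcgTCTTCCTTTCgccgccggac
Rpl35 (chr2:39005117-39005146, minus strand): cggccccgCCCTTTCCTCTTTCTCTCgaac
Rpl38 (chr11:114668565-114668594, plus strand): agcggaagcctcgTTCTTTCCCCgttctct
Rps10 (chr17:27635230-27635259, minus strand): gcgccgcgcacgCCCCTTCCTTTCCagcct
Rps18 (chr17:33955651-33955680, minus strand): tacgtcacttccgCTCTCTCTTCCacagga
Rpl22 (chr4:152324421-152324450, plus strand): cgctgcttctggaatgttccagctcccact

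A C at the annotated start followed by 4 bases that were each C or T, read on the gene's strand, was present in 8 of the 40 genes with a promoter entry (20.0%), against 813 of 27025 genes in the whole table (3.01%). The 8 were Rpl14, Rpl35, Rpl38, Rplp2, Rps10, Rps18, Rps27 and Rps6. In Rpl27a, Rps24 and Rps9 the annotated start lay inside a pyrimidine run but was not a C. The letters CCGGAAG, the core bound by ETS factors such as GABP, were found on either strand within 250 bases before to 50 bases after the start in 20 of the 40 genes (50%), against 9.93% of all genes. AAGATGGC, a YY1-type core whose first letters can overlap the last letters of CCGGAAG, was found in the same window on either strand in 3 of 40 (7.5%), against 3.19% of all genes. TATAAA, on either strand of the 250 bases before the start, was found in 3 of 40 (7.5%), against 14.3% of all genes. A match describes these letters and no site, and it was not tested whether genes with a match differed between the crosses.

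The readings of most ribosomal protein genes differed little between the crosses, and most of these readings lay near the upper end of the arrays' range. The test covered 43 of the 46 genes, those above the 40th percentile of the array on at least 3 of 6 arrays. In the AKR cross 2 of the 43, Rpl27a and Rps6, were called higher and 1, Rps24, was called lower, which is 6.98% of them, against 24.0% of all genes tested (12.5% higher and 11.5% lower). The median difference was 0.019 for the 43 genes and 0.033 for all genes, and the median absolute difference was 0.058 against 0.166. Replicates of these genes lay close together, with a median SD within a cross of 0.032, against 0.097 for all genes. The arrays of the crosses did not overlap in 17 of the 43 genes (39.5%), with the AKR arrays above in 12 and below in 5, and they did not overlap in 43.9% of all genes (24.5% above and 19.4% below). The median deviation of the 43 genes from their own means ran from -0.0069 to 0.011 over the 3 AKR arrays and from -0.020 to 0.0078 over the 3 DBA arrays. All arrays had near-equal distributions, with medians from 5.92 to 5.94 and highest values from 14.35 to 14.42. Readings near the top of such arrays are held close together. The deviations therefore cannot show whether an array differed in the RNA level of the family.

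**Figure D1:**
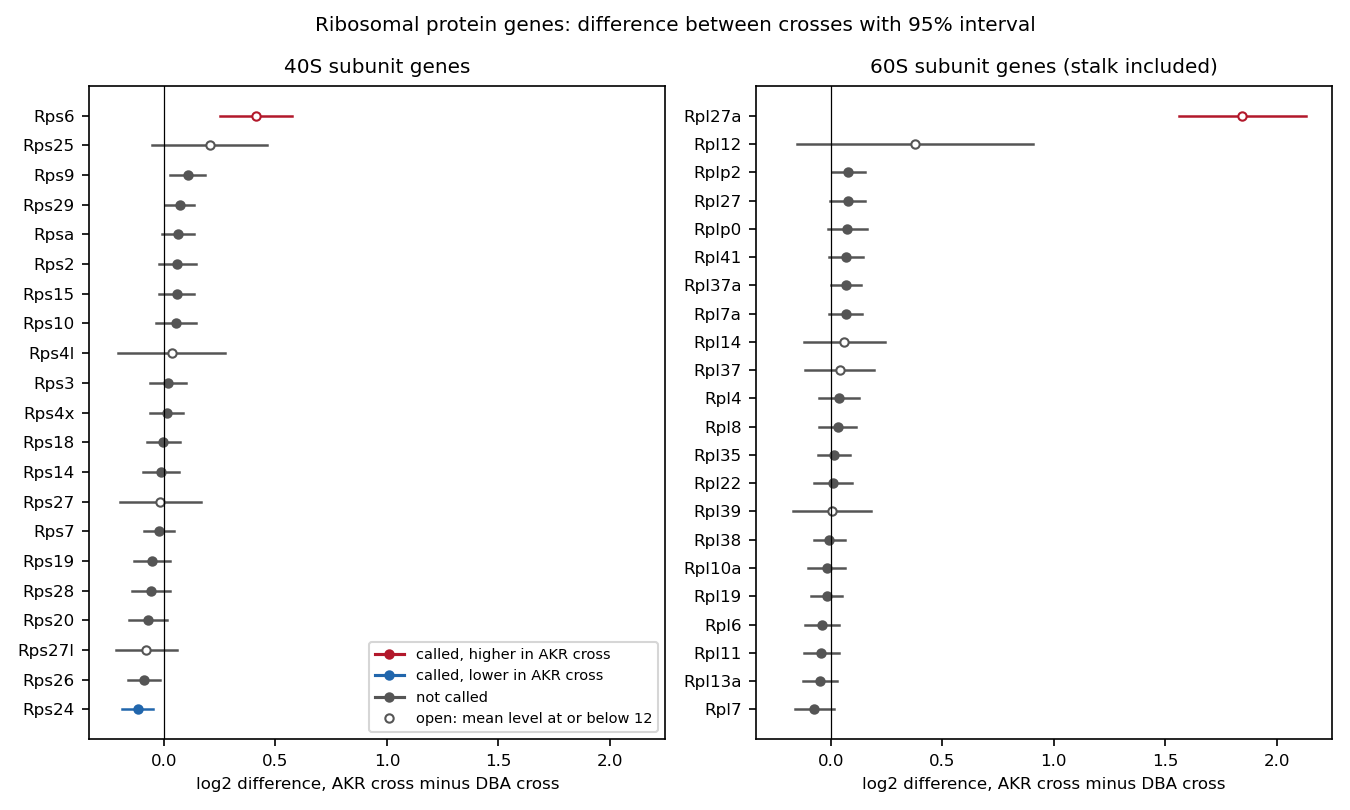
Difference between the crosses (AKR cross minus DBA cross, log2) for each tested ribosomal protein gene, with its 95% interval from limma and n = 3 arrays a cross, 40S genes on the left and 60S genes on the right. Red marks genes called higher in the AKR cross and blue genes called lower, and open points mark genes whose mean level was at or below 12. Rpl27a stands at 1.85 and Rps6 at 0.41, and the other points lie between -0.12 and 0.38.

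The 43 genes fell into a bright and a dim set on these arrays, and a level of 12, chosen after the values were seen, separates them. In 33 genes the chosen probe set read from 12.9 to 14.2, at or above the 99.6th percentile of its arrays, and 1 of these, Rps24, was called. The intervals of the other 32 bright genes all lay between -0.16 and 0.19 on the log2 scale of these readings (1.12-fold lower to 1.14-fold higher in the AKR cross). The highest value of any probe set was 14.35 to 14.42 on each array, so these genes read close to the top of the range, where a microarray reading can change less than the RNA does. Whether such compression narrowed these differences was not tested, and the intervals set no limit on the change in RNA. Of all 217 genes that read above 12, these 33 included, 59 were called (27.2%), with a median absolute difference of 0.089. The remaining 10 genes read from 7.16 to 11.35, and both genes called higher, Rpl27a and Rps6, were among these. Levels of different probe sets cannot be set against each other as amounts of RNA, so the split describes array readings and not the abundance of the mRNAs.

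**Figure D2:**
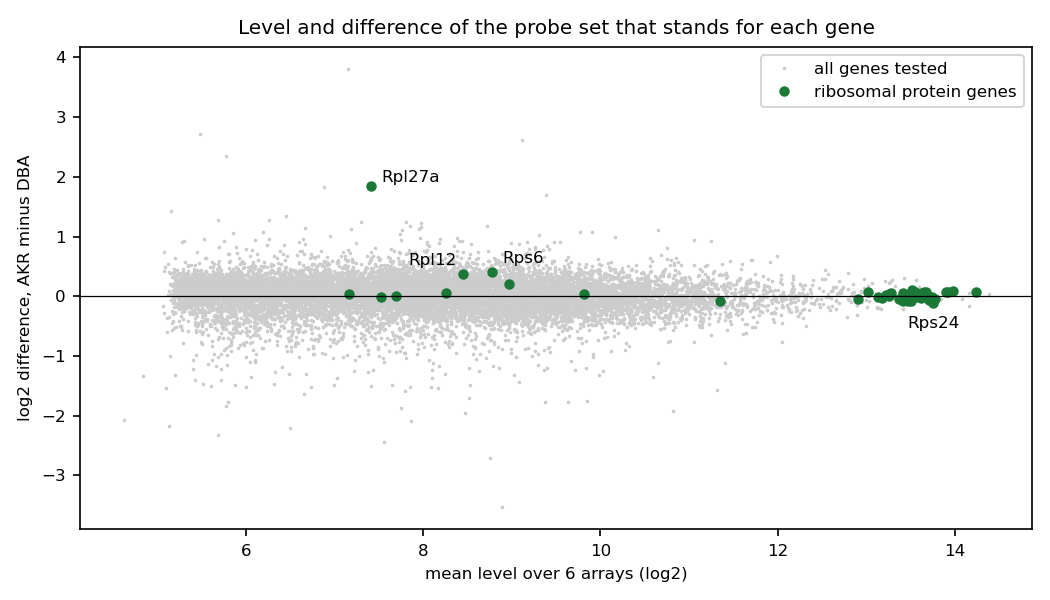
Difference between the crosses (AKR cross minus DBA cross, log2) against the mean level over all 6 arrays (log2), with 1 point for each of 12855 genes in grey and for the 43 tested ribosomal protein genes in green. Most green points lie at the right end, between 12.9 and 14.2 and close to 0, and Rpl27a stands at a level of 7.40 with a difference of 1.85.

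Rpl27a encodes a protein of the 60S subunit. Its probe set 1437729_at read 8.42, 8.18 and 8.38 on the AKR arrays, against 6.34, 6.74 and 6.36 on the DBA arrays. The groups did not overlap, and the lowest AKR array was above the highest DBA array by more than the spread within either cross. The difference was 1.85 (SE 0.13, 95% interval 1.56 to 2.13), which is 3.60-fold, with an adjusted p of 5.61e-05 by limma. With each array left out in turn it ranged from 1.77 to 1.98 and remained called. A second Rpl27a probe set with 1 symbol, 1419799_at, read between 3.32 and 3.80 on all arrays, below the filter, and was not tested. Another, 1426661_at, names several symbols and so stood outside the rule, and it read 13.53, 13.50 and 13.54 on the AKR arrays, against 13.58, 13.61 and 13.56 on the DBA arrays. The difference of that bright probe set was -0.06 (SE 0.033) and it was not called (adjusted p = 0.203 over all probe sets, limma), so the call of Rpl27a rests on 1 dim probe set. The nearest tested genes on its chromosome were not all adjacent, and their positions are counted in genes from Rpl27a. Denn2b (position 3) fell by 0.34 (adjusted p = 0.0239). Akip1 (position 4) at 0.16, Eif3f (position -14) at -0.06 and Cyb5r2 (position -82) at 0.34 were not called.

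Rps6 encodes the 40S protein that S6 kinases phosphorylate downstream of mTORC1, and its start carries the pyrimidine run shown above. Probe set 1416142_at read 8.96, 8.94 and 9.04 on the AKR arrays, against 8.57, 8.53 and 8.60 on the DBA arrays, without overlap. The difference was 0.41 (SE 0.071, 1.33-fold, adjusted p = 0.00427, limma), and it remained called with each array left out. The other probe set with 1 symbol read below the filter. Probe set 1416141_a_at, which names several symbols, read 14.13 ± 0.037 in the AKR cross, against 14.05 ± 0.020 in the DBA cross (SD, n = 3 each). That difference of 0.08 was not called (adjusted p = 0.0965 over all probe sets). A further several-symbol probe set, 1454620_x_at, fell by 0.12 (adjusted p = 0.0488 over all probe sets). The probe sets that name Rps6 thus differed in sign as well as in call.

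Rps24 encodes a 40S protein, and mutations of the human gene cause Diamond-Blackfan anaemia. Its brightest probe set, 1436064_x_at, read 13.69, 13.70 and 13.69 on the AKR arrays, against 13.80, 13.85 and 13.79 on the DBA arrays. All AKR arrays were below all DBA arrays, by a difference of -0.12 (SE 0.031, 1.09-fold, adjusted p = 0.0251, limma). Leaving out AKR replicate 1 gave an adjusted p of 0.0579, which ended the call, as did leaving out AKR replicate 2 (0.0591), AKR replicate 3 (0.0703) or DBA replicate 2 (0.0834). Rps24 had 6 tested probe sets, 5 with a negative difference, and 1456628_x_at was also called, at -0.18 (adjusted p = 0.0287 over all probe sets). Probe sets 1455195_at and 1436500_at, the dimmest, gave -0.03 and 0.12 and were not called.

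**Figure D3:**
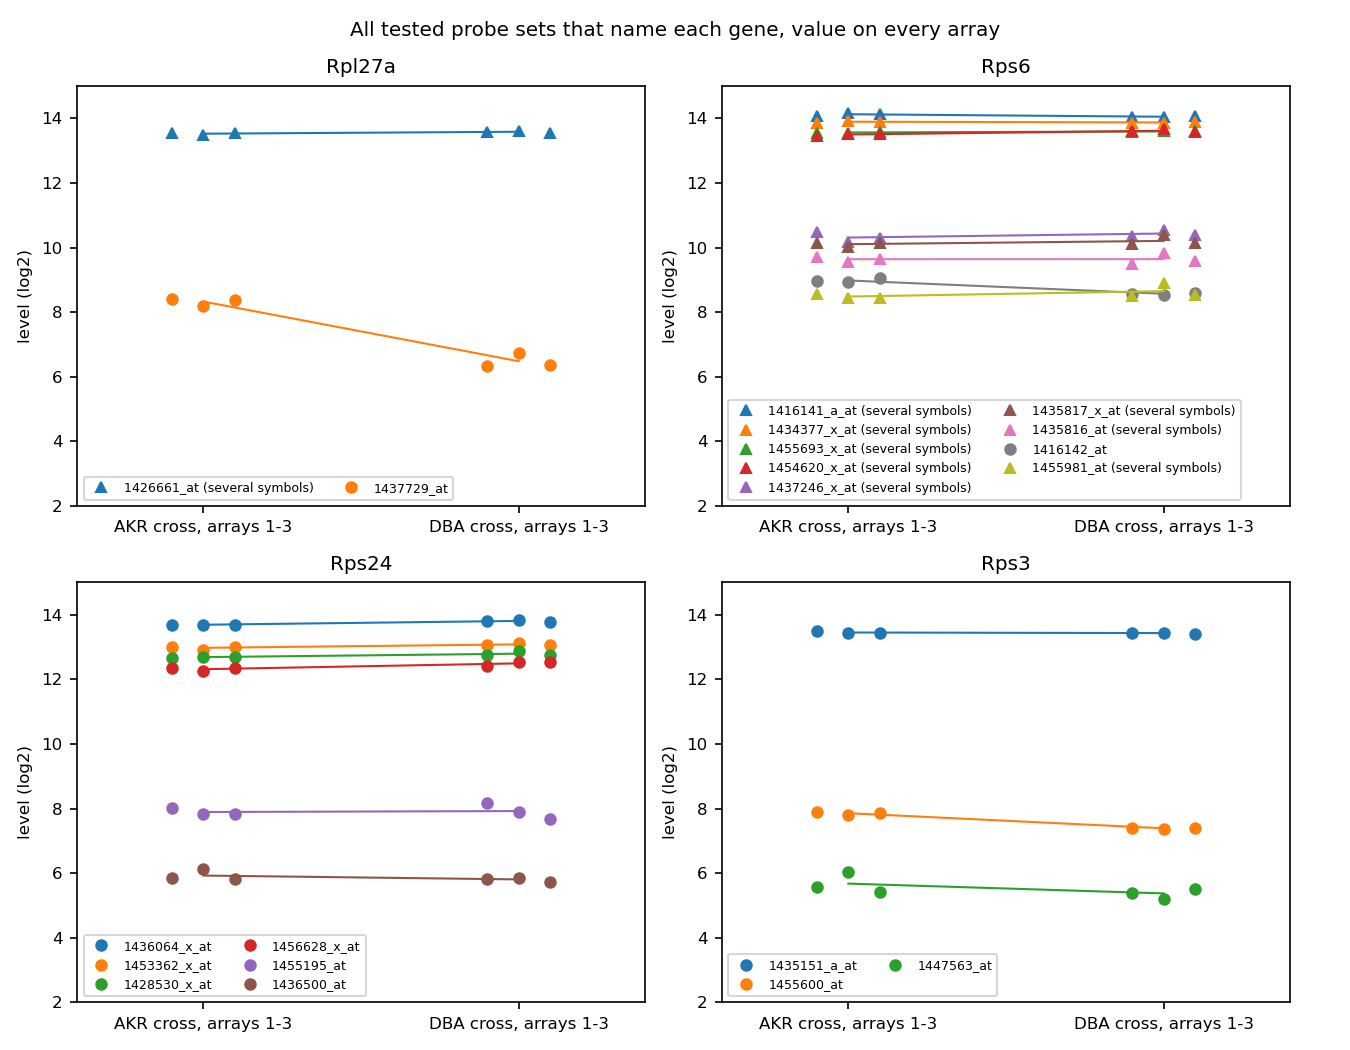
Level (log2) on every array of all tested probe sets that name Rpl27a, Rps6, Rps24 or Rps3, AKR arrays left of DBA arrays in each panel. Circles are probe sets with 1 symbol, triangles are probe sets with several symbols, and lines join the means of the crosses. For Rpl27a the 1-symbol probe set stands at 8.33 in the AKR cross, against 6.48 in the DBA cross, and the several-symbol probe set stands at 13.52 in the AKR cross, against 13.58 in the DBA cross.

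Of the other 40S genes none was called. Rps9, a protein of the 40S body, came nearest from above, with 13.57, 13.54 and 13.62 on the AKR arrays, against 13.49, 13.44 and 13.48 on the DBA arrays. Its difference of 0.11 (SE 0.035) had an adjusted p of 0.0543 over genes and 0.0499 over probe sets, and its 2 other tested probe sets gave 0.09 and -0.09. Rps26, another gene mutated in human Diamond-Blackfan anaemia, came nearest from below, with 13.37, 13.36 and 13.39 on the AKR arrays, against 13.47, 13.46 and 13.45 on the DBA arrays (difference -0.09, adjusted p = 0.0685). Both genes separated the crosses on every array by amounts under 0.2. Rps25, a 40S protein used by some viral internal ribosome entry sites, read 9.348, 8.930 and 8.924 on the AKR arrays, against 8.824, 8.843 and 8.921 on the DBA arrays. AKR replicate 1 set most of that difference of 0.20 (SE 0.11, adjusted p = 0.222), and without it the value was 0.06.

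Further 40S genes showed the same small scale. Rps29, a zinc-binding protein, read 14.28 ± 0.012 in the AKR cross, against 14.21 ± 0.030 in the DBA cross (SD, n = 3 each), a difference of 0.07 with an interval of 0.0056 to 0.14 and an adjusted p of 0.105. Rpsa, a 40S protein also known as the laminin receptor, gave 0.06 (interval -0.0077 to 0.13). Rps19, the gene most often mutated in human Diamond-Blackfan anaemia, gave -0.05 (interval -0.13 to 0.028). At the chosen probe sets all AKR arrays were above all DBA arrays for Rps6, Rps9, Rps29, Rpsa, Rps2, Rps15 and Rps25. They were below them for Rps24, Rps26, Rps7, Rps19 and Rps20. These 12 are 57.1% of the tested 40S genes, against 43.9% of all genes, and these shares were not tested against each other. Over the 21 tested 40S genes, 11 differences were positive and 10 negative, with a median of 0.012.

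Among 60S genes Rpl27a alone was called. Of the 22 tested, stalk genes included, 15 differences were positive and 7 negative, with a median of 0.036. Over all 12855 genes, 7115 were positive and 5740 negative, with a median of 0.033. Rpl12, a protein at the base of the stalk, read 9.16, 8.30 and 8.45 on the AKR arrays, against 8.54, 7.84 and 8.39 on the DBA arrays. These arrays overlapped, and the difference of 0.38 (SE 0.23) had an interval from -0.15 to 0.91 and an adjusted p of 0.266. It was 0.12 without AKR replicate 1 and 0.17 without DBA replicate 2, and a brighter several-symbol probe set of Rpl12 gave -0.05, not called. Rpl22 read 13.31, 13.23 and 13.25 on the AKR arrays, against 13.29, 13.27 and 13.21 on the DBA arrays, a difference of 0.010 with an interval of -0.076 to 0.096. The other 2 probe sets of Rpl22, at 0.14 and -0.15, were not called. Rpl11, which with 5S RNA and Rpl5 can bind the p53 regulator Mdm2, gave -0.04 (interval -0.12 to 0.035). Rpl38, whose loss of 1 copy gives the skeletal defects of Tail-short mice, gave -0.0052 (interval -0.076 to 0.066).

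The stalk recruits the elongation factors that hydrolyse GTP. Rplp0, its scaffold, read 13.54, 13.62 and 13.62 on the AKR arrays, against 13.49, 13.57 and 13.50 on the DBA arrays, which overlapped (difference 0.07, adjusted p = 0.195). Rplp2 read 14.02 ± 0.037 in the AKR cross, against 13.94 ± 0.030 in the DBA cross (SD, n = 3 each), a difference of 0.08 with an interval of 0.0056 to 0.15 and an adjusted p of 0.108. Rpl37a, a zinc-binding protein of the 60S subunit and one of the genes with the highest readings, gave 0.07 (adjusted p = 0.120). At the chosen probe sets the AKR arrays were above the DBA arrays for Rpl27a, Rpl27, Rpl37a, Rpl7a and Rplp2. No 60S gene had them below on every array at its chosen probe set. The 60S genes so separated are 22.7% of the 22 tested. Other probe sets of a gene could separate the other way. For Rpl27, 1453096_x_at (-0.10) and 1448217_a_at (-0.17) had all AKR arrays below all DBA arrays, and neither was called. The several-symbol probe set 1426661_at of Rpl27a also had them below. Of all genes, 24.5% had the AKR arrays above and 19.4% below.

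Divergent copies of ribosomal proteins, which several tissues use in place of the common form, read too low to be tested or were not called at their brightest probe set. Rpl3l, which in mice replaces Rpl3 in striated muscle, read 4.47, 4.20 and 4.05 on the AKR arrays, against 5.70, 4.29 and 3.90 on the DBA arrays. DBA replicate 1 alone passed the 40th percentile of its array, so the gene was not tested. The same array read 11.99 for the muscle actin gene Acta1, against 6.09 to 9.28 on the AKR arrays and 7.30 and 8.39 on the other DBA arrays. None of the 5 tested skeletal muscle markers was called, and their summed linear level ran from 320 to 1134 over the AKR arrays and from 323 to 7405 over the DBA arrays. The part of that muscle signal in the Rpl3l reading was not tested. Rpl39l, a copy of Rpl39 best known from the testis, read between 4.14 and 4.48 on all arrays and was not tested. Rps27l, a target of p53, had its brightest probe set at -0.08 (adjusted p = 0.365), while 1423254_x_at was called at 0.19 (adjusted p = 0.0350 over probe sets). Rps4l, a copy related to the X-linked Rps4x, read 7.07, 7.14 and 7.33 on the AKR arrays, against 7.01, 7.25 and 7.18 on the DBA arrays, with overlap and a difference of 0.03. Rps27 at -0.02 and Rpl39 at 0.0041 were, with Rps4l, the uncalled genes of lowest reading.

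Ribosomal protein genes have many near-identical pseudogene copies, so probes may pick up more than 1 transcript, and the probe sets of a gene often disagreed. Over all 89 tested probe sets with 1 symbol, 7 were called higher and 2 lower in the AKR cross (10.1%), against 27.2% of all probe sets. Of 20 genes with several tested probe sets, the sign differed among them in 13 and the call in 6, which were Rpl13a, Rpl41, Rps24, Rps27l, Rps3 and Rps9. None had opposite calls among its probe sets with 1 symbol. Rps3, a 40S protein that lines the mRNA entry channel, was not called at its brightest probe set 1435151_a_at (0.02, adjusted p = 0.728 over probe sets). The dim probe set 1455600_at of Rps3 read 7.91, 7.81 and 7.86 on the AKR arrays, against 7.40, 7.37 and 7.40 on the DBA arrays, and was called at 0.47 (SE 0.079, adjusted p = 0.00291). Rpl13a, in human cells also part of an inhibitor of inflammatory mRNA translation, gave -0.05 at its brightest probe set. Its probe set 1417608_a_at was called higher at 0.16 (adjusted p = 0.00974 over probe sets). A several-symbol probe set that names Rpl13a, 1435873_a_at, was called lower at -0.12 (adjusted p = 0.0311 over probe sets). Rpl41, one of the shortest known proteins of the ribosome, gave 0.07 at its brightest probe set and 0.15 at the called 1422623_x_at (adjusted p = 0.0116).

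In 9 of the 43 tested genes a probe set naming several symbols was brighter than the chosen one, and in 8 of these the chosen one read at or below 12. These 9 were Rpl12, Rpl14, Rpl27a, Rpl37, Rpl39, Rps2, Rps25, Rps27 and Rps6. Adjusted p-values of several-symbol probe sets are given here over all probe sets. Of the brighter probe sets 2 were called, Rps27 at -0.16 (adjusted p = 0.0289) and Rps2 at 0.10 (adjusted p = 0.0496). Adjusted over genes, Rps2 was called under no alternative (lowest adjusted p = 0.0540, limma). The untested Rps16 also had a brighter several-symbol probe set, and its only probe set with 1 symbol read between 3.40 and 3.72. That brighter one, 1437196_x_at, read 13.87 ± 0.027 in the AKR cross, against 13.73 ± 0.030 in the DBA cross (SD, n = 3 each), a called difference of 0.14. In all, 110 probe sets named a ribosomal protein gene beside other symbols, and of the 105 tested 9 were called higher and 12 lower (20.0%). The several-symbol probe sets name 44 ribosomal protein genes, 29 of them not among the 46. Rpl5 gave -0.11 at its brightest such probe set (adjusted p = 0.0372) and Rpl24 gave 0.03 (adjusted p = 0.520). Rpl15 was chosen after its values were seen, because 1434328_at had the most negative difference of these probe sets, with 9.162, 9.079 and 9.211 on the AKR arrays, against 9.842, 9.873 and 9.998 on the DBA arrays (difference -0.75, adjusted p = 0.000138). The brighter Rpl15 probe set 1449255_a_at gave 0.0045 and was not called.

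Genes next to the family by name or by protein product were also measured. Fau, which encodes a ubiquitin-like protein fused to the 40S protein S30, read 13.40, 13.39 and 13.37 on the AKR arrays, against 13.22, 13.21 and 13.04 on the DBA arrays. It was called at 0.23 (SE 0.049, adjusted p = 0.0104). Rpl22l1, the paralogue of Rpl22, read 12.03, 11.90 and 11.96 on the AKR arrays, against 12.11, 12.17 and 12.15 on the DBA arrays, and fell by 0.18 (SE 0.047, adjusted p = 0.0237). Rpl7l1 at 0.17 and Rps3a1 at -0.05 were not called. Rpl36al was named only by several-symbol probe sets, at 0.02 (1416807_at) and -0.07 (1448697_s_at), and neither was called. Rack1 was not analysed here.

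**Figure D4:**
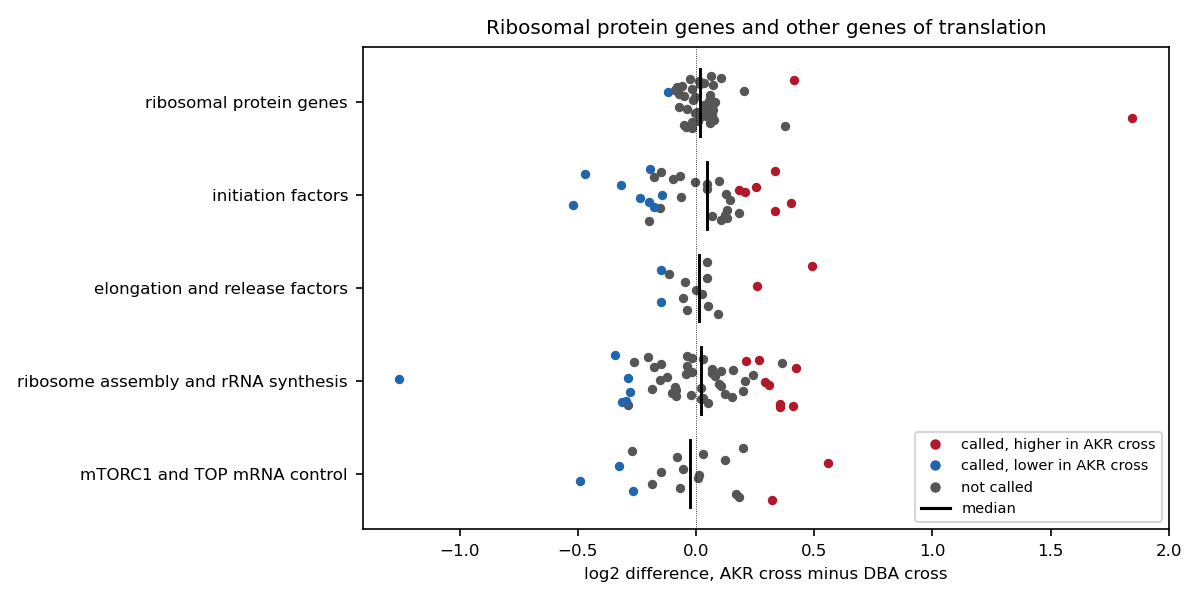
Difference between the crosses (AKR cross minus DBA cross, log2) of every tested gene in the ribosomal protein family and in 4 lists of translation genes, 1 point a gene, red where called higher in the AKR cross, blue where called lower and grey where not called, with a black bar at the median. Most ribosomal protein points crowd around 0, and those farthest from it are Rpl27a at 1.85, Rps6 at 0.41 and Rpl12 at 0.38. Calls in both directions appear in each of the other lists.

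Other genes of translation were called in both directions, and the difference between their share of calls and that of the ribosomal proteins was not tested. Of 115 tested genes in 4 lists, 18 were called higher and 19 lower in the AKR cross (32.2%, against 24.0% of all genes), with a median difference of 0.012 and a median absolute difference of 0.148. Initiation factors had 6 higher and 8 lower of 33. Eif3a, the scaffold of eIF3, fell by 0.52 and Eif5, the GTPase activator of the scanning complex, fell by 0.47. Eif3b, another eIF3 core subunit, rose by 0.40, and Eif6, which keeps free 60S subunits from joining 40S, rose by 0.33. Of 14 elongation and release genes, Eif5a (0.26) and the ribosome rescue factor Pelo (0.49) were called higher and Naca (-0.15) and Eef1b2 (-0.15) lower.

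Ribosome assembly and ribosomal RNA synthesis genes had 8 higher and 6 lower of 50. Nop58, a core protein of box C/D small nucleolar particles, read 8.005 ± 0.159 in the AKR cross, against 9.260 ± 0.151 in the DBA cross (SD, n = 3 each), 2.39-fold lower in the AKR cross (adjusted p = 0.000204, limma). Rrp9 (0.42) and Nop10 (0.29), both of small nucleolar particles, were called higher, and Npm1, a nucleolar chaperone, was called lower (-0.29). Among 18 genes of mTORC1 signalling and TOP mRNA control, 2 were called higher and 3 lower. Rps6kb2, an S6 kinase, rose by 0.56 (adjusted p = 0.00223) and Akt1s1, an mTORC1 subunit, rose by 0.32. Rps6ka3 fell by 0.33 and Eif4ebp2, a repressor of cap-dependent translation, fell by 0.27.

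Markers that define thymocytes were present, with Rag1 between 12.88 and 13.10 and Dntt between 12.98 and 13.13 on all arrays. Of 11 tested thymocyte markers 1 was called higher (Cd3e, 0.30) and 1 lower (Cd1d1, -0.26). Markers of dividing cells were called higher in the AKR cross in 6 of 9, against 12.5% of all genes. Mki67 (0.013), Top2a (0.017) and Mcm5 (0.079) were not called. The summed linear level of the 9 was 30065 to 32934 over the AKR arrays and 27182 to 27355 over the DBA arrays. B cell markers were called higher in 5 of 7, with sums of 1406 to 1524 over the AKR arrays and 1035 to 1152 over the DBA arrays. Of 5 myeloid markers 1 was called higher (Lyz2, 0.27) and 2 lower (S100a8, -0.96, and S100a9, -0.97). Of 6 epithelial markers 1 was called higher (Foxn1, 0.67) and 2 lower (Epcam, -0.59, and Aire, -0.34). Of 2 red cell markers 1 was called higher (Hba-a2, 1.28), and none of 3 fat markers was called. The part of these cells in the calls of Rpl27a, Rps6 and Rps24 was not tested. In whole thymus, fewer cells of a type and less RNA per cell cannot be told apart.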

How the data were processed

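Per the labels' protocols, RNA was taken from snap-frozen thymus with Trizol and labelled with biotin for Affymetrix arrays. The authors deposited 45101 log2 values per array. Per the submitters' processing notes MAS5 and RMA were involved. Their versions, and which of them gave the deposited log2 values, are details not given in the sources used here. Array medians ran from 5.92 to 5.94, and values from 2.47 to 14.4. Precision is limited by having 3 arrays a cross.

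The deposited values were used as they are. After 64 control probe sets were left out, 27385 probe sets above the 40th percentile of their array on at least 3 of 6 arrays entered 1 two-sided limma fit (version 3.58.1, R 4.3.3) that used lmFit, then eBayes with a mean-variance trend. Genes were represented by their brightest tested probe set with 1 symbol, and p-values were Benjamini-Hochberg adjusted over 12855 genes, or over all probe sets where stated. Sequences came from a RefSeq table of GRCm38.p6. Pandas 2.3.3 and matplotlib 3.10.9 were used.

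The members, the gene lists and the tests were chosen with earlier results of these data known. Named were all called members, divergent copies, well-studied members and members whose probe sets differed in call. Of the uncalled members, the 3 highest and 3 lowest in level and the 3 largest in difference were also named. Not every member whose probe sets differed only in sign was named. Outside the family, neighbours of a called member with a difference of at least 1 were named, and up to 4 called genes of each list. The alternatives were other filters, normalizations, variance models and probe set rules, array weights, a block and each array left out.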

Additional observations from a re-analysis of the deposited data

How the results depend on the processing

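Of the 43 tested ribosomal protein genes, 34 stayed on the same side of the threshold under each of the 17 alternatives that gave a value for them. The count called higher in the AKR cross (2) ran from 1 to 3 over the 17 alternatives, and was 2 with each array left out. It was 1 once the brightest probe set naming a gene was taken with several-symbol probe sets included, an alternative chosen after seeing the data. The count called lower (1) was 2 with several-symbol probe sets and under a filter at the 60th percentile. That count was 0 without a variance trend, with probe sets averaged per gene, and without probe sets ending in _s_at or _x_at. It ranged from 0 to 1 with 1 array left out. With several-symbol probe sets Rpl27a gave -0.060 and Rps6 0.077, neither called, and Rps27 was called lower. The 1 gene called higher under that alternative was therefore neither Rpl27a nor Rps6. Rpl13a reversed to 0.16 (adjusted p = 0.0116) without probe sets ending in _s_at or _x_at. Rps24 lost its call in 7 alternatives. Rps9 was called in 4 alternatives, Rps26 in 1 and Rps3 in 1. The median difference of the family (0.019) was 0.034 with median centring, 0.032 with the mean of probe sets, 0.032 without _s_at and _x_at probe sets and -0.0041 with several-symbol probe sets, and 0.014 to 0.029 with 1 array left out. Other translation genes called higher (18) ranged from 9 to 17 with 1 array left out, lowest without AKR replicate 3 (9) and DBA replicate 3 (10). Those called lower (19) ranged from 10 to 16, with 12 when AKR replicate 1 was left out, 11 for AKR replicate 2, 10 for DBA replicate 1 and 11 for DBA replicate 2, and were 11 with no variance trend. Over all genes, 893 to 1422 were called higher and 948 to 1200 lower with 1 array left out. The cause of these changes was not tested beyond the smaller number of arrays or the other probe set that an alternative used.

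The crosses share replicate numbers in their titles, and same-numbered arrays deviated together with r = 0.368, 0.0033 and 0.382. Pairs with unlike numbers ran from -0.411 (AKR replicate 3, DBA replicate 1) to 0.153 (AKR replicate 3, DBA replicate 2). Deviations within a cross depend on each other, so these values are not independent. The labels state no shared animal, litter or day, so the main fit was unpaired. Whether same-numbered arrays shared a batch was not tested. With the replicate number as a block, 3 ribosomal protein genes were called higher, Rpl12 added (adjusted p = 0.0207), and 1 lower. The median difference was 0.019 with that block, and 20 other translation genes were called higher and 22 lower. AKR replicate 2 did not correlate best with its own number.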
